A study of Drosophila melanogaster with 18 samples.

Results

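The genes described here encode the subunits of the proteasome. They are the FlyBase genes whose symbols begin with Rpn, Rpt, Prosalpha or Prosbeta followed by a digit, 48 of the 17994 features of the RNA table, 17768 of which are FlyBase genes. Of the 48, 10 belong to the base of the regulatory particle (Rpt1 to Rpt6, Rpn1, Rpn2, Rpn10 and Rpn13), 8 to its lid (Rpn3, Rpn5, Rpn6, Rpn7, Rpn8, Rpn9, Rpn11 and Rpn12), 7 to the alpha rings and 7 to the beta rings of the 20S core, and 16 are paralogs with an R or T in the symbol's suffix. A gene was tested where its normalised read value reached 1 in 3 or more libraries, which held for 36: all 32 subunits without a suffix, and Rpt3R, Rpt6R, Prosalpha1R and Prosbeta2R2.

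The proteasome degrades proteins that have been marked with ubiquitin. Its 20S core is a barrel of stacked rings: outer alpha rings form the gate, and inner beta rings hold the proteolytic sites. A regulatory particle caps the core, with a base whose Rpt subunits form a ring of ATPases that unfolds substrates, and a lid that removes ubiquitin chains. In flies, several subunits have a second gene copy known mainly from the male germ line, where it replaces the general subunit, and an early embryo relies on proteasomes and mRNAs supplied by its mother.

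Whole Drosophila melanogaster embryos were collected over 0 to 1.5 h at 25 °C, and both their RNA and their small RNA were sequenced, with 3 libraries per group and assay. Piwi-MatKD_2 embryos had mothers of the genotype THU/MAT-Gal4 and Piwi-MatKD_1 embryos mothers of the genotype 37483/MAT-Gal4, a pair of lines for the knockdown of Piwi, an Argonaute protein that binds small RNAs. GFP-MatKD embryos, the controls, had mothers of the genotype 41550/MAT-Gal4, so that all 3 groups carried the MAT-Gal4 driver, which acts in the mother, and all had w1118 fathers. The growth protocol describes a different cross, about 100 females with the UAS-shRNA and 20 males with MAT-GAL4, so the cross is uncertain. Embryos of many mothers thus share a library. The labels do not say whether libraries of a group came from separate collections, so p-values measure the spread between these libraries, which may be technical.

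RNA values are the authors' normalised reads, in which the reads of a library are all scaled by its own factor, and are compared between libraries for the same gene but not between genes of different length. RNA libraries held 8.5 to 73.0 M reads, and those of Piwi-MatKD_2 are named by their totals of 21.6, 8.5 and 73.0 M, since their replicate numbers are uncertain. The targeted gene, piwi, had 87.7 to 646 normalised reads in Piwi-MatKD_2, 256 to 410 in Piwi-MatKD_1 and 7963 to 9361 in GFP-MatKD. Of 8 maternal markers of the early embryo, among them bcd and osk, none passed the test in any comparison. Ribosomal RNA took 10.9%, 5.90% and 0.328% of the reads in the Piwi-MatKD_2 libraries of 21.6, 8.5 and 73.0 M, against 0.182% to 0.535% in the other 6. Of 21 early zygotic genes, which the embryo itself begins to transcribe, 4 passed in limma as lower in Piwi-MatKD_2 than in GFP-MatKD (Kr, dpp, sisA and run). Over all features 1.42% were called lower, and the median log2 fold change of the list was -2.73. With the Piwi-MatKD_2 library of 73.0 M alone the median was -2.35 and Kr alone passed, with dpp, sisA and run at adjusted p = 0.163, 0.214 and 0.0916 in limma. One gene, slam, took most of the summed level, and without it the other 20 summed to 570 to 2494 normalised reads in Piwi-MatKD_2, 2973 to 5625 in Piwi-MatKD_1 and 3623 to 7699 in GFP-MatKD. The gene slam had 3811 to 7241 normalised reads in Piwi-MatKD_2, 8029 to 11559 in Piwi-MatKD_1 and 8419 to 14945 in GFP-MatKD. A high rRNA share thus marked the Piwi-MatKD_2 libraries of 21.6 and 8.5 M, while that of 73.0 M lay within the range of the other 6. The level of these early zygotic genes moved with Piwi-MatKD_2. The part of the rRNA share and of these genes in the results on that line was not tested. Whole embryos were pooled, so a different mix of embryos and a different RNA level within each embryo cannot be told apart.

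In Piwi-MatKD_2 embryos, mean normalised reads of nearly every proteasome subunit were about 2 to 3 times those of control embryos. The 1 exception was Rpn1, at 4.29% of the control mean. These reads are relative to the rest of a library, so the amount of RNA in an embryo was not measured. The genes were grouped with these values known, so the contrasts of Piwi-MatKD_2 are given as a description and carry no test. For the 31 subunits without suffix other than Rpn1, the ratio of Piwi-MatKD_2 to GFP-MatKD means ran from 1.96 to 3.12 with a median of 2.42, and the log2 fold changes in limma were all above 0, with a median of 1.18 beside -0.04 over all 10767 features tested. In Piwi-MatKD_1 the same ratio ran from 0.850 to 1.31 with a median of 1.03. Together the 48 genes took 1.10% to 1.96% of all reads in Piwi-MatKD_2, 0.658% to 0.843% in Piwi-MatKD_1 and 0.742% to 0.772% in GFP-MatKD.

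Rpn1, a large scaffold of the base on which ubiquitin shuttles and a deubiquitinase dock, had 417, 404 and 632 normalised reads in Piwi-MatKD_2, 10669, 12628 and 8952 in Piwi-MatKD_1, and 10947, 10526 and 12443 in GFP-MatKD. All 3 Piwi-MatKD_2 libraries lay far below the other 6, and Piwi-MatKD_1 and GFP-MatKD overlapped. Its log2 fold change was -4.57 in Piwi-MatKD_2 (SE 0.19) and -0.08 in Piwi-MatKD_1 (SE 0.19), both against GFP-MatKD. Without both Piwi-MatKD_2 libraries high in rRNA, it was -4.16 (SE 0.20), a value from the library of 73.0 M alone, whose spread is taken from the other groups and not measured. The gene lies on chromosome 3L at 19915051 to 19918160 in RefSeq's annotation of Release 6, the assembly that the submitters' notes name as BDGP6.

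The other 9 members of the base had log2 fold changes above 0 in Piwi-MatKD_2. Of these, 6 were called higher in limma and Rpt2, Rpt4 and Rpn13 were not, where 1.62% of all features were called higher. Such calls describe genes chosen on these values and test nothing. Rpn2, the other large scaffold of the base and the member of the base closest to the controls, had 23014, 35345 and 32786 normalised reads in Piwi-MatKD_2, 16127, 17685 and 12553 in Piwi-MatKD_1, and 15410.2, 14027 and 17030.3 in GFP-MatKD. Groups did not overlap between Piwi-MatKD_2 and either of the others. Among the ATPases, Rpt3 had 8037, 15894 and 14672 normalised reads in Piwi-MatKD_2, 5082, 7762 and 3820.2 in Piwi-MatKD_1, and 5014, 4407 and 4791 in GFP-MatKD, the highest log2 fold change of the base at 1.38 (SE 0.30). Its lowest Piwi-MatKD_2 library lay just above its highest Piwi-MatKD_1 library. Rpt6, an ATPase of the same ring, had 17460.1, 18509 and 19435 normalised reads in Piwi-MatKD_2, 7759, 8264 and 8063 in Piwi-MatKD_1, and 8478, 9002 and 7784 in GFP-MatKD. These are compact groups, with Piwi-MatKD_2 at 2.19 times GFP-MatKD. Log2 fold changes of the remaining ATPases against GFP-MatKD were 1.29 for Rpt1, 1.05 for Rpt2, 1.17 for Rpt4 and 1.14 for Rpt5, and those of the ubiquitin receptors were 1.36 for Rpn10 and 1.08 for Rpn13. Rpn13 had 3359, 10536 and 8522 normalised reads in Piwi-MatKD_2, 3939, 4914 and 2441 in Piwi-MatKD_1, and 3423, 2795 and 3358 in GFP-MatKD. Its Piwi-MatKD_2 library of 21.6 M lay within the range of both other groups.

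**Figure D1:**
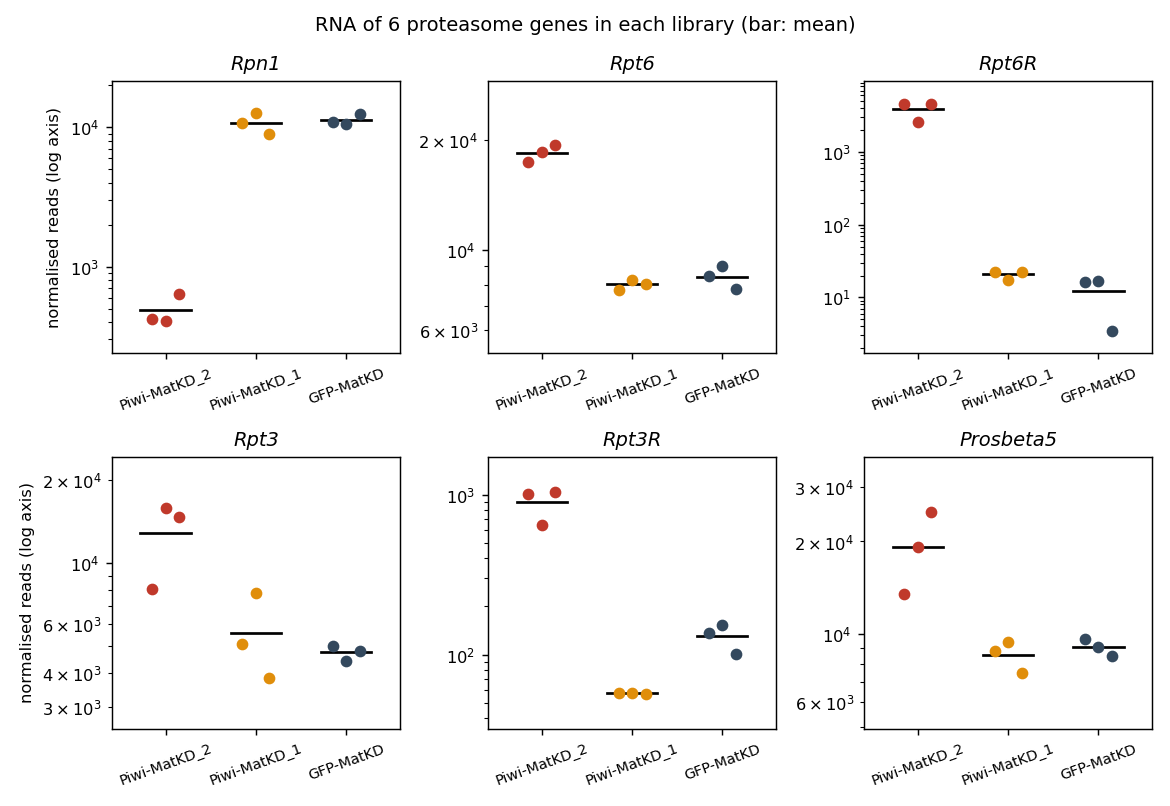
Normalised reads of 6 proteasome genes on log axes, 1 point per library and a bar for the group mean, with Piwi-MatKD_2 at the left, Piwi-MatKD_1 in the middle and GFP-MatKD at the right of each panel. Rpn1 lies at 404 to 632 in Piwi-MatKD_2, below all other libraries, while Rpt6, Rpt6R, Rpt3, Rpt3R and Prosbeta5 lie above them.

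Every lid subunit had a log2 fold change above 0 in Piwi-MatKD_2. All but Rpn7 were called higher in limma, beside 1.62% of all features, again as a description and not a test. The 8 log2 fold changes against GFP-MatKD ran from 1.05 to 1.41 with a median of 1.28, and in Piwi-MatKD_1 from -0.08 to 0.16. Rpn6, a scaffold subunit that also touches the core, had the smallest, with 22246, 19165 and 20981 normalised reads in Piwi-MatKD_2, 9538, 9761 and 10676 in Piwi-MatKD_1, and 10044, 10598 and 9501 in GFP-MatKD. Rpn12, another scaffold subunit, had the largest, with 7059, 13644 and 13307 in Piwi-MatKD_2, 4187, 5812 and 3647 in Piwi-MatKD_1, and 4373, 4078 and 3843 in GFP-MatKD. In both genes the Piwi-MatKD_2 libraries lay above all others, tightly for Rpn6 and with 1 low library for Rpn12. The remaining log2 fold changes were 1.28 for Rpn11, the deubiquitinase of the lid, 1.36 for its partner Rpn8, and 1.13, 1.18, 1.28 and 1.29 for the scaffold subunits Rpn3, Rpn5, Rpn7 and Rpn9.

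The 20S core showed the same size of difference. Alpha subunits had log2 fold changes of 1.00 to 1.50 with a median of 1.31, and beta subunits of 1.04 to 1.47 with a median of 1.18. At the low end of the alpha rings stood Prosalpha2, with 13643, 14517 and 17376 normalised reads in Piwi-MatKD_2, 7438, 7957 and 6910.1 in Piwi-MatKD_1, and 7830.1, 7767 and 7146 in GFP-MatKD. At their high end stood Prosalpha4, with 12767, 18895 and 19429 in Piwi-MatKD_2, 6332, 7949 and 5539 in Piwi-MatKD_1, and 6413, 5838 and 5495 in GFP-MatKD. Neither gene had an overlap between Piwi-MatKD_2 and the other groups. Log2 fold changes of the other alpha subunits were 1.12 for Prosalpha1, 1.31 for Prosalpha3, 1.46 for Prosalpha5, 1.43 for Prosalpha6 and 1.16 for Prosalpha7.

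Among the beta subunits, Prosbeta5, which holds the chymotrypsin-like site, had the smallest log2 fold change, 1.04 (SE 0.21), with 13479.5, 19158 and 24844 normalised reads in Piwi-MatKD_2, 8822, 9442 and 7453 in Piwi-MatKD_1, and 9611, 9069 and 8495 in GFP-MatKD. Prosbeta1, which holds the caspase-like site, was at the other end with 1.47 (SE 0.46), with 3836, 13205 and 11315 in Piwi-MatKD_2, 3677, 5829 and 2429 in Piwi-MatKD_1, and 3530.0, 2610 and 2942 in GFP-MatKD. Prosbeta5 was higher in every Piwi-MatKD_2 library than in any other library, whereas Prosbeta1 in the Piwi-MatKD_2 library of 21.6 M lay below its highest Piwi-MatKD_1 library. Prosbeta2, the subunit with the trypsin-like site, had a log2 fold change of 1.17 (SE 0.11). For the subunits without a proteolytic site the values were 1.14 for Prosbeta3, 1.34 for Prosbeta4, 1.18 for Prosbeta6 and 1.47 for Prosbeta7.

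**Figure D2:**
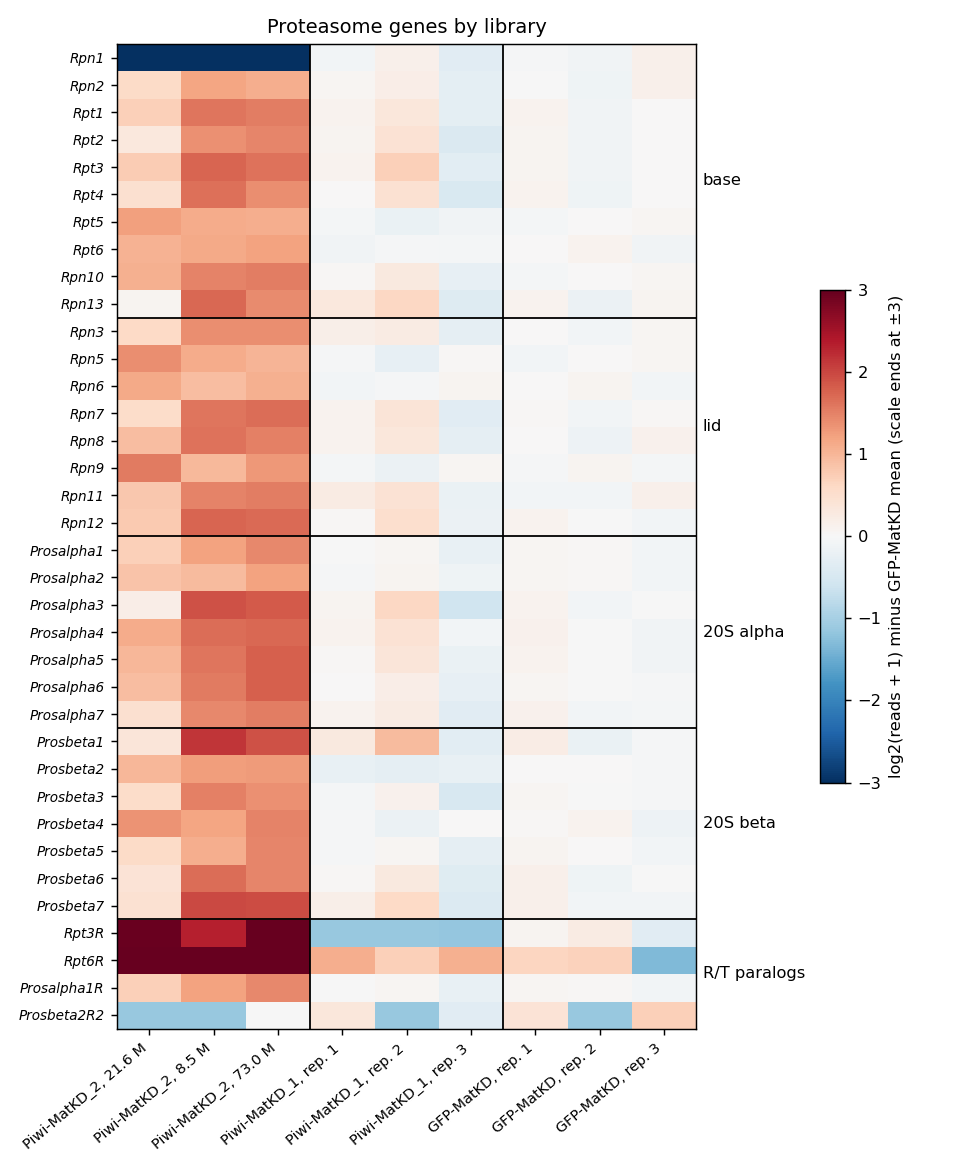
Log2(normalised reads + 1) of the 36 tested proteasome genes minus the mean of the 3 GFP-MatKD libraries, 1 row per gene and 1 column per library, with colours that end at 3 in either direction. The 3 Piwi-MatKD_2 columns at the left are mostly red in every class except for Rpn1 and Prosbeta2R2, palest for most genes in the library of 21.6 M, and the Piwi-MatKD_1 and GFP-MatKD columns are pale apart from Rpt3R, Rpt6R and Prosbeta2R2.

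The paralogs fell into 3 kinds. Of 16, 7 had no read in any of the 9 libraries (Prosalpha3T, Prosalpha4T1, Prosalpha6T, Prosbeta4R2, Prosbeta5R1, Prosbeta5R2 and Rpn12R), and 4 had a single read in all (Prosalpha4T2, Prosbeta2R1, Prosbeta4R1 and Rpn13R). Rpt4R had 1, 2 and 0 reads in Piwi-MatKD_2, 0 in Piwi-MatKD_1 and 1, 0 and 0 in GFP-MatKD, too few for a fold change. Prosbeta2R2 had at most 4 reads in any library, and its 3 groups overlapped. Prosalpha1R differed from Prosalpha1 by at most 1.17% in any library, so reads of these near-identical copies were not told apart by the counting and both values are uncertain.

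Rpt6R and Rpt3R, paralogs of the ATPases Rpt6 and Rpt3, were the 2 paralogs with over 100 reads in a library that were told apart from the general subunit. Rpt6R had 4630.2, 2582 and 4555 normalised reads in Piwi-MatKD_2, 22.7, 17.4 and 22.2 in Piwi-MatKD_1, and 16.3, 17.0 and 3.47 in GFP-MatKD. Its Piwi-MatKD_2 mean of 3922 ± 1162 was 320.0 times the GFP-MatKD mean of 12.3 ± 7.62 (SD, n = 3 each), and the 3 GFP-MatKD values rest on 26, 10 and 4 reads. On the log2 scale the difference was 8.41 (SE 0.52), and 8.67 with the Piwi-MatKD_2 library of 73.0 M alone. Rpt3R had 1009, 648 and 1042 normalised reads in Piwi-MatKD_2, 57.3, 57.9 and 56.6 in Piwi-MatKD_1, and 136, 153 and 102 in GFP-MatKD. It was highest in Piwi-MatKD_2 and lowest in Piwi-MatKD_1, with no overlap between any of the 3 groups and a log2 fold change of 2.77 (SE 0.24) in Piwi-MatKD_2. Rpt6R lies on chromosome 3R at 30582198 to 30583697 and Rpt3R on chromosome 3R at 9754735 to 9756510, while Rpt6 lies on the X chromosome at 21316052 to 21317663 (same annotation).

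A list of 21 testis genes was at low levels in all groups. Of its genes, 12 had no read in any RNA library and 4 were tested. Among these topi, a regulator of testis transcription, passed as lower in Piwi-MatKD_2 (log2 fold change -1.93, adjusted p = 0.0171 in limma), beside 1.42% of all features. With the Piwi-MatKD_2 library of 73.0 M alone, none passed. Most of the summed level was 1 gene, mia, with 151 to 179 normalised reads in Piwi-MatKD_2, 122 to 185 in Piwi-MatKD_1 and 183 to 189 in GFP-MatKD. The other 20 summed to 3.81 to 15.9 in Piwi-MatKD_2, 17.2 to 20.3 in Piwi-MatKD_1 and 13.2 to 25.5 in GFP-MatKD.

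Counts of proteasome genes past an adjusted p of 0.05 in limma (Benjamini-Hochberg over all features) followed these values. In Piwi-MatKD_2 against GFP-MatKD, 25 of the 36 tested were higher and 1, Rpn1, was lower, where 3.04% of all features were called, 1.62% as higher and 1.42% as lower. These were 6 of 10 in the base beside Rpn1, 7 of 8 in the lid, 5 of 7 alpha subunits, 4 of 7 beta subunits and 3 paralogs. The paralogs were Rpt6R, Rpt3R and Prosalpha1R. Prosalpha1R was not told apart from Prosalpha1, so these 2 do not count as separate genes here or by range. By range, 33 lay with all Piwi-MatKD_2 libraries above all GFP-MatKD libraries, against 8.07% of all features, and Rpn1 lay with all below, against 12.9%. Against Piwi-MatKD_1, 24 were called higher and Rpn1 lower, where 2.22% of all features were called, 1.21% as higher and 1.01% as lower. By range, 29 lay with all Piwi-MatKD_2 libraries above all Piwi-MatKD_1 libraries, against 5.99% of all features, and Rpn1 with all below, against 9.63%. Since the genes were chosen on these values, nothing is read from these counts. The count of 26 against GFP-MatKD was 35 without the Piwi-MatKD_2 library of 21.6 M, where 3.76% of all features were called. It was 15, 17 and 15 without GFP-MatKD replicate 1, 2 and 3, where 1.10%, 1.52% and 1.15% of all features were called, so the calls over all features moved with it. With neither library high in rRNA, an alternative added after the data were seen, it was 27 where 1.34% were called, but this rests on 1 Piwi-MatKD_2 library assumed to vary like those of the other groups and is not comparable with the counts from 3. In all of these fits 1 member was called lower.

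**Figure D3:**
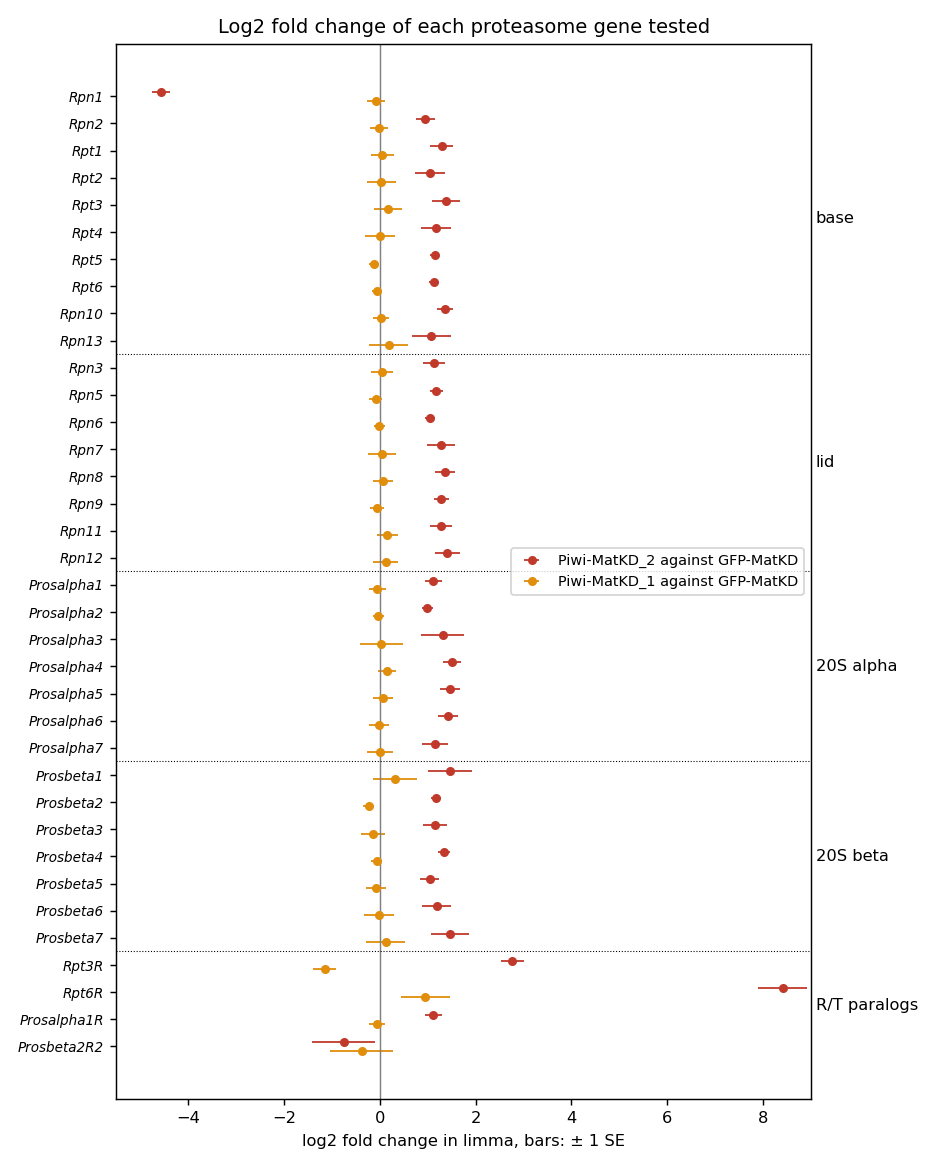
Log2 fold change in limma of each tested proteasome gene, with bars of 1 SE, in Piwi-MatKD_2 (red) and Piwi-MatKD_1 (orange) against the same GFP-MatKD libraries, grouped into base, lid, 20S alpha, 20S beta and paralogs. In Piwi-MatKD_2 the subunits without suffix other than Rpn1 lie between 0.95 and 1.50, with Rpn1 at -4.57 and Rpt6R at 8.41, and in Piwi-MatKD_1 those without suffix lie between -0.24 and 0.31.

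In Piwi-MatKD_1 embryos, where piwi RNA was low as well, no proteasome gene passed in limma. Against GFP-MatKD, 0 of the 36 genes passed in limma, where 0.186% of all features passed, 0.149% as higher and 0.0372% as lower. An unadjusted p under 0.05 was found for 1 of the 36 genes, beside 307 of all 10767 features tested. No gene passed in edgeR, and 1, Rpt3R, passed as lower in DESeq2, both on reads recovered from the table. The log2 fold change of Rpt3R was -1.15 (SE 0.24, adjusted p = 0.296 in limma, 0.00203 in DESeq2). In the subunits without suffix, log2 fold changes ran from -0.24 for Prosbeta2 to 0.31 for Prosbeta1 with a median of 0.00, beside 0.01 over all features. Rpt6R had 0.95 (SE 0.52, adjusted p = 1.00 in limma). By range, Rpt6R alone lay with all Piwi-MatKD_1 libraries above all GFP-MatKD libraries, against 4.79% of all features, and Rpt3R, Prosbeta2 and Rpt5 lay with all below, against 5.12%.

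Libraries of a group differed among themselves in a way that most subunits shared. The coefficient of variation over 3 libraries, as a median over the 31 subunits, was 28.7% in Piwi-MatKD_2, 20.0% in Piwi-MatKD_1 and 6.48% in GFP-MatKD. Within Piwi-MatKD_2, the library of 21.6 M was the lowest for 26 of the 31, or 83.9%, against 44.1% of all features. The median difference of the 31 subunits from the GFP-MatKD mean was 0.76 on the log2 scale in that library, 1.49 in that of 8.5 M and 1.47 in that of 73.0 M. Within Piwi-MatKD_1, replicate 3 was the lowest for 24 of the 31, or 77.4%, against 43.3% of all features, and replicate 2 was the highest for 25. That replicate 2 was also the library with the highest summed level of 7 late muscle genes, 1643 normalised reads against 113 in Piwi-MatKD_1 replicate 1 and at most 68.6 in any of the remaining 7, and the part of this in the result was not tested.

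The same subunits were low in both of those libraries. Across the 31 genes, the log2 difference of the 21.6 M library from the other Piwi-MatKD_2 libraries and that of Piwi-MatKD_1 replicate 3 from its own group had a Pearson correlation of 0.960 and a Spearman correlation of 0.925. Over all 10767 features the same correlations were 0.490 and 0.626. These are across genes that share libraries, and genes are not independent replicates. Prosbeta1, Prosalpha3, Prosbeta7 and Rpn13 were at one end, with differences of -1.67 to -1.50 in the 21.6 M library and -0.95 to -0.81 in replicate 3. Rpn9, Rpn5, Rpn6, Rpt5 and Prosbeta4 were at the other end, with differences of 0.03 to 0.42 and 0.03 to 0.18. The 9 subunits not called in Piwi-MatKD_2 against GFP-MatKD were Prosalpha3, Prosalpha7, Prosbeta1, Prosbeta6, Prosbeta7, Rpn7, Rpn13, Rpt2 and Rpt4. They were the 9 with the largest shortfall in the 21.6 M library, and all 31 were called without it, beside 3.76% of all features. A low library widens the spread the test uses, so nothing is read from this match or the calls without the 21.6 M library. Other lists differed between these libraries too, by median difference from the GFP-MatKD mean in the libraries of 21.6, 8.5 and 73.0 M. It was -0.64, 0.13 and 0.16 for 13 eIF3 genes, which act in translation initiation, and -0.45, 0.62 and 0.48 for 8 CCT chaperonin genes. Also lowest in the 21.6 M library were 16 heat shock genes (0.25, 0.87 and 0.64) and 21 early zygotic genes (-4.27, -1.47 and -2.35). So were 14 genes of the ubiquitin system (0.39, 0.57 and 0.46). Not lowest there were 8 COP9 signalosome genes (0.04, -0.02 and 0.15), 8 proteasome cofactors (1.05, 0.77 and 1.04) and 8 maternal markers (0.06, 0.12 and 0.05).

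**Figure D4:**
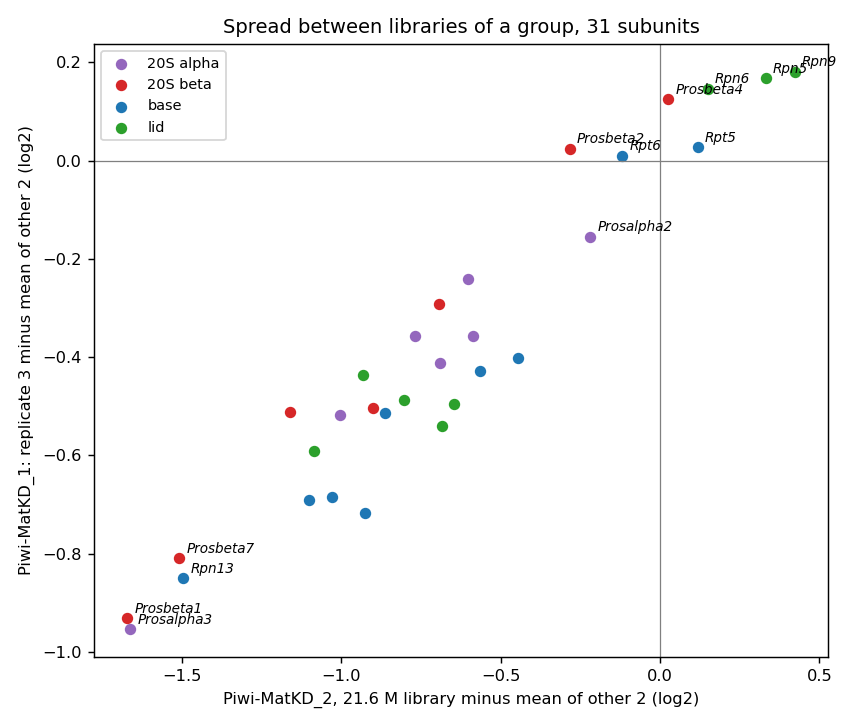
Spread between libraries of a group for the 31 subunits without suffix other than Rpn1: the log2 difference of the Piwi-MatKD_2 library of 21.6 M from the mean of the other 2 (horizontal) and of Piwi-MatKD_1 replicate 3 from the mean of the other 2 (vertical), coloured by class. Points lie along a rising line (Pearson 0.960), from Prosbeta1 and Prosalpha3 at the lower left to Rpn5 and Rpn9 at the upper right.

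Genes that work with the proteasome were read from lists written with earlier results of these data known. Calls in these lists, here and below, thus describe them and are not read as tests. Over all features, 1.62% were called higher and 1.42% lower in Piwi-MatKD_2 against GFP-MatKD. Of 8 proteasome cofactors, 5 passed as higher in Piwi-MatKD_2 against GFP-MatKD and none as lower, with a list median of 1.00 on the log2 scale. Under library totals 4 passed, beside 2.85% of all features in either direction. With the Piwi-MatKD_2 library of 73.0 M alone, Pomp was at 2.21 and Uch-L5 at 0.89 on the log2 scale. Pomp, the chaperone that assembles the 20S core, had 2772, 7485 and 5709 normalised reads in Piwi-MatKD_2, 1390.5, 3068 and 1275 in Piwi-MatKD_1, and 1460.0, 1072 and 1189 in GFP-MatKD, a log2 fold change of 2.00 (SE 0.41, adjusted p = 0.0366 in limma). Its Piwi-MatKD_2 values lay above GFP-MatKD and overlapped those of Piwi-MatKD_1. Sem1, a small subunit of the lid, had 5539, 5152 and 6857 in Piwi-MatKD_2, 2632, 2469.9 and 2618 in Piwi-MatKD_1, and 2693, 2527 and 2802 in GFP-MatKD, a log2 fold change of 1.12 (SE 0.12, adjusted p = 0.00206 in limma). Usp14 and Uch-L5, deubiquitinases of the regulatory particle, had log2 fold changes of 1.35 and 0.91, and Txl, a thioredoxin-like protein that binds it, of 1.10. REG, PI31 and ntc did not pass, at 0.09, 0.29 and 0.50.

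In the wider ubiquitin system 3 of 14 genes passed as higher, with a median of 0.47. The share over all features, 1.62% as higher, stands beside this count and those of the next lists. Ubqn, which carries ubiquitinated proteins to the proteasome, had a log2 fold change of 0.93, and Ufd1 and Npl4, which help extract such proteins from membranes and complexes, had 0.91 each. Of 12 genes of the CncC pathway, which in flies is known to raise proteasome gene expression under stress, 2 passed as higher, with a median of 0.25. They were ref(2)P, an autophagy receptor, at 1.53 (adjusted p = 1.77e-04 in limma), and slmb, a subunit of a ubiquitin ligase, at 0.43. The transcription factor gene cnc itself had 15078, 15291 and 13230.2 normalised reads in Piwi-MatKD_2, 11459, 12626 and 11486 in Piwi-MatKD_1, and 11929.8, 11511 and 12688 in GFP-MatKD, a log2 fold change of 0.27 (adjusted p = 0.268 in limma). All 3 Piwi-MatKD_2 values lay above the other 6. Of 16 heat shock genes tested, 15 had log2 fold changes above 0, with a median of 0.59 and a range of -2.455 to 1.68. Among them 1 passed as higher, the chaperone gene DnaJ-1 at 0.55. With the Piwi-MatKD_2 library of 73.0 M alone, and also under library totals, 2 genes of the ubiquitin system, 1 of the CncC pathway and 0 heat shock genes passed in limma. In the fit with that library alone Ubqn, slmb and DnaJ-1 were at 0.69, 0.39 and 0.58 (adjusted p = 0.0571, 0.200 and 0.0686 in limma).

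Complexes that share the architecture of the lid or work as large cytoplasmic assemblies had medians nearer to 0. None of 8 COP9 signalosome genes, 13 eIF3 genes or 8 CCT chaperonin genes passed in limma, and in Piwi-MatKD_2 against GFP-MatKD the lists had medians of 0.08, -0.12 and 0.15 on the log2 scale. With scaling by library totals these medians were -0.08, -0.27 and 0.00, where the median of all features was -0.19, and 1 eIF3 gene passed as lower. In Piwi-MatKD_1 no gene of these lists passed, and the cofactors had a median of 0.01.

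**Figure D5:**
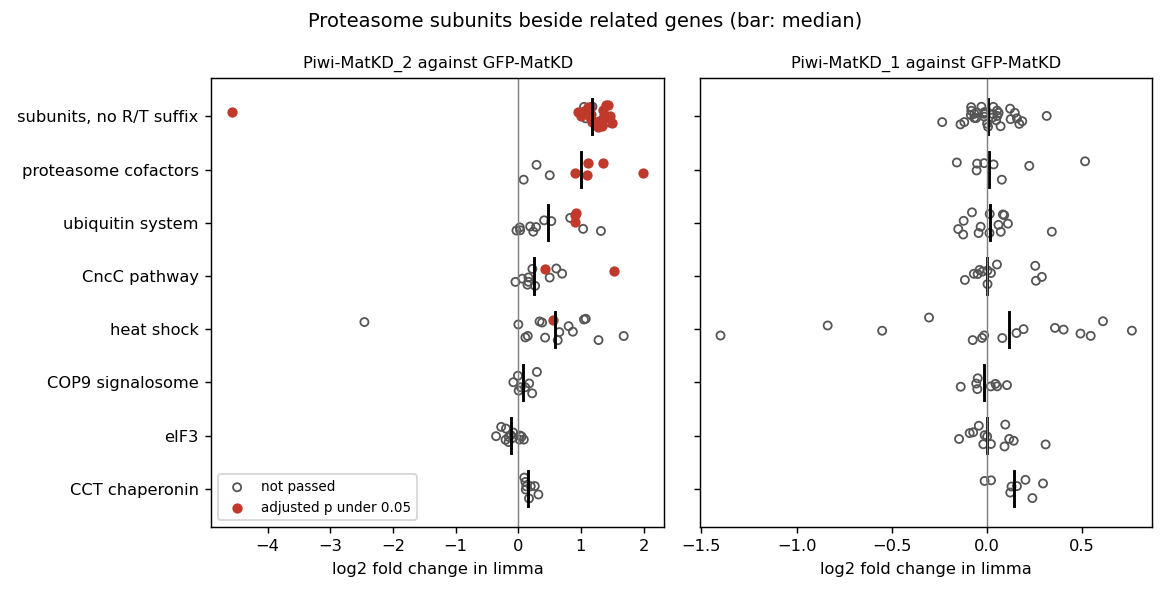
Log2 fold change in limma of each tested gene of the proteasome and of 7 related lists, in Piwi-MatKD_2 (left) and Piwi-MatKD_1 (right) against GFP-MatKD, with a bar for the median of each list and filled points for an adjusted p under 0.05. The horizontal axes differ in range. On the left the largest medians are 1.18 for subunits, 1.00 for cofactors, 0.59 for heat shock genes and 0.47 for the ubiquitin system. On the right no point is filled.

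Small RNA of the proteasome genes was an independent measure, since the genes were not chosen on it. These are the authors' expected counts per gene, with no split by length or strand, from libraries of 1.88 to 3.38 M counts. Of the 48 genes, 4 had no count in any library, 20 had at least 10 counts over all 9 libraries and 2 had at least 100, and 3 were abundant enough to be tested. None of the 3 passed in edgeR or DESeq2 in any comparison, and none had an unadjusted p under 0.05 in edgeR. Of all 2169 features, 569 had such a p in Piwi-MatKD_2 and 546 in Piwi-MatKD_1, both against GFP-MatKD. Between the 2 lines it was 560. With only 3 genes tested, little can be read from their lack of calls. Of all 2169 features tested, 12.5% passed in Piwi-MatKD_2 against GFP-MatKD (5.95% as higher and 6.59% as lower). In Piwi-MatKD_1 against GFP-MatKD, 7.51% passed (1.84% as higher and 5.67% as lower), and in Piwi-MatKD_2 against Piwi-MatKD_1, 5.39% (3.23% as higher and 2.17% as lower).

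Rpt4 had the most small RNA of the family, at 14.9, 58.6 and 66.9 CPM (counts per M of the library total) in Piwi-MatKD_2, 48.9, 56.4 and 69.1 in Piwi-MatKD_1, and 28.7, 23.9 and 41.4 in GFP-MatKD. Its lowest Piwi-MatKD_2 library lay below all GFP-MatKD libraries, and the log2 fold changes were 0.79 in Piwi-MatKD_2 (SE 0.40, adjusted p = 0.243 in edgeR) and 0.77 in Piwi-MatKD_1 (SE 0.40, adjusted p = 0.244 in edgeR). Without Piwi-MatKD_2 replicate 1, Rpt4 passed as higher in Piwi-MatKD_2 at 1.18 (adjusted p = 0.0361 in edgeR). Rpn8 had a log2 fold change of -0.16 in Piwi-MatKD_2 (adjusted p = 0.906) and -0.68 in Piwi-MatKD_1 (adjusted p = 0.430), and Prosalpha3 of 0.38 (adjusted p = 0.897) and -0.85 (adjusted p = 0.678), all in edgeR. Their groups overlapped. Without GFP-MatKD replicate 3, Rpt5 passed in Piwi-MatKD_1, with 33.3 counts in Piwi-MatKD_1 and 9 in GFP-MatKD over all libraries, all of the 9 in the library left out.

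Genes with the largest differences in RNA had next to no small RNA. Rpn1 had 5.67 counts of 7.24 M in Piwi-MatKD_2, 14 of 7.30 M in Piwi-MatKD_1 and 6 of 8.98 M in GFP-MatKD, as sums over 3 libraries. Rpt6R had 0, 0.25 and 0.11 counts in the same groups and Rpt3R 0, 0.5 and 0, where a sum of 0 in Piwi-MatKD_2 allows up to 0.414 CPM, for counting error alone. For comparison, small RNA counted to piwi, the knockdown target, was at 1011 ± 153 CPM in Piwi-MatKD_2, 395 ± 240 in Piwi-MatKD_1 and 9.50 ± 2.52 in GFP-MatKD (SD, n = 3 each).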

How the data were processed

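The authors' RNA table holds a normalised read signal per gene, as deposited. In each library 100% of values above 0 were whole multiples of the value of 1 read, within 0.01 read, so whole reads were recovered; the factors, 0.262 to 2.58, equal median-ratio size factors. For small RNA, the authors deposited expected counts per gene, which were rounded for the test. Per the submitters' processing notes, the tools were cutadapt, Bowtie 1.2.2 and featureCounts and the build BDGP6; settings, strand and how multiply mapped reads were counted are not given in the sources used here. The labels' protocols name a stranded mRNA kit, the series total RNA.

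RNA was tested with limma 3.58.1 (trend) on log2(value + 1), over features with a value of at least 1 in 3 libraries, and small RNA with edgeR 4.0.16 (quasi-likelihood, TMM, filterByExpr), in R 4.3.3, both with all 9 libraries of an assay and Benjamini-Hochberg adjustment at 0.05. DESeq2 1.42.0 and edgeR on recovered reads were alternatives, beside other pseudocounts (0.5 and 5), filters, scalings, array weights, left-out libraries and a replicate block. Fold changes on the log2(value + 1) scale understate those of low genes. Shares of reads have 95% Wilson half-widths of at most 0.016 points, for counting error alone. Steps were tested on simulated data.

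The genes, lists and tests were chosen with earlier results of these data known. Values are named for every tested gene, except that Prosbeta2R2 and Prosalpha1R have none against GFP-MatKD. They are also named for listed genes that passed, with cnc, Pomp and Sem1. Per-library values are given for Rpn1, Rpt6, Rpt6R, Prosbeta5 and the largest and smallest log2 fold change of each class in Piwi-MatKD_2. Prosbeta2R2, the smallest of the paralogs, was left out there. Rpt3R, Rpt4R and Rpn13 were given per library after their values were seen. Markers of follicle cells (7 genes) had no call. In RNA, numbers did not pair the libraries: same-numbered libraries of Piwi-MatKD_1 and GFP-MatKD had a mean correlation of -0.220. In small RNA, same-numbered libraries had mean correlations from 0.0902 to 0.265. The check does not settle pairing there, and the main small RNA test used no replicate block. Sequences are not analysed here.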

Additional observations from a re-analysis of the deposited data

Results flagged for a closer look

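The effects of both lines against the same controls differed for 25 of the 36 proteasome genes tested, where 2.22% of all features were called. The calls are from the limma fit of Piwi-MatKD_2 against Piwi-MatKD_1, with values given as log2 differences. As the genes were chosen on these values, the differences describe and do not test them. In the base, Rpn1 was at -4.49, and Rpn2, Rpn10, Rpt1, Rpt5 and Rpt6 were at 0.97, 1.33, 1.24, 1.26 and 1.20. In the lid, Rpn3, Rpn5, Rpn6, Rpn8, Rpn9, Rpn11 and Rpn12 were at 1.08, 1.26, 1.06, 1.30, 1.34, 1.12 and 1.28. In the alpha rings, Prosalpha1, Prosalpha2, Prosalpha4, Prosalpha5 and Prosalpha6 were at 1.17, 1.02, 1.36, 1.39 and 1.44. In the beta rings, Prosbeta2, Prosbeta3, Prosbeta4 and Prosbeta5 were at 1.41, 1.28, 1.41 and 1.12. Of the paralogs, Rpt6R, Rpt3R and Prosalpha1R were at 7.45, 3.92 and 1.18, the last not told apart from Prosalpha1.

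Among genes of the other lists, 12 differed between the lines in the same fit, again beside 2.22% of all features. Cofactors Usp14, Sem1, Txl and Uch-L5 were at 1.40, 1.17, 1.11 and 1.07, Ufd1 and Ubqn of the ubiquitin system at 0.85 and 0.82, and ref(2)P and Keap1 of the CncC pathway, Keap1 being the inhibitor of CncC, at 1.48 and 0.72. The early zygotic genes Kr, dpp and run were at -3.45, -3.04 and -2.03, and the testis gene topi at -1.59.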

How the results depend on the processing

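No called value of a named gene changed sign under the alternatives run. Of Piwi-MatKD_2 against GFP-MatKD, 26 proteasome genes were called, from 19 to 35 under the other settings and from 15 to 35 with 1 library left out. Calls over all features, 3.04% in the first, moved as well: the 35 under array quality weights stood beside 17.0% and the 35 in DESeq2 beside 7.68%, and the 19 under library totals beside 2.85%. Against Piwi-MatKD_1, 25 were called, beside 2.22% of all features. With 1 library left out the count ran from 13 to 35. The 13, without Piwi-MatKD_1 replicate 1, stood beside 0.887%, and the 35, without the Piwi-MatKD_2 library of 21.6 M, beside 2.36%. The count was 16 under library totals, beside 1.78%, and 12 with these groups alone, beside 0.64%. Rpn1 and Rpt6R were called in both contrasts under every alternative run. As the genes were chosen on these values, such calls in Piwi-MatKD_2 describe them and test nothing. In Piwi-MatKD_1 against GFP-MatKD the count was 0 with any library left out and 1 in DESeq2. The median log2 fold change of the 32 subunits without suffix in Piwi-MatKD_2 against GFP-MatKD ran from 1.03 to 1.50. In small RNA the counts were 0 to 1 against GFP-MatKD in either line with 1 library left out, and 0 in all other alternatives.

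In RNA the replicate numbers are only shared, as the pairing check found, while in small RNA the check did not settle this. With the replicate block, 0 proteasome genes were called in RNA of Piwi-MatKD_1 (3 of all features, 20 without it), and 0 in small RNA in all 3 comparisons (295, 294 and 246 of all features, against 163, 272 and 117). Of 6 RNA libraries 0 correlated best with their own number, and 10 of 18 pairings of a small RNA library with another group did. Piwi-MatKD_2 has no block in RNA, as its numbers are uncertain. The spread of Piwi-MatKD_2, the 8.5 M depth of 1 library and the few small RNA counts limit the precision.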

Other observations

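Neighbours of the genes that differed most were read from the order of genes in RefSeq's annotation. Mtr3 and Su(z)12, on either side of Rpn1, had 853 ± 100.2 and 4639 ± 1085 normalised reads in Piwi-MatKD_2, 825 ± 48.6 and 5115 ± 758 in Piwi-MatKD_1, and 801 ± 41.9 and 4827 ± 616 in GFP-MatKD (SD, n = 3 each). Next to Rpt6R, CG9702 had 37.7, 15.3 and 54.2 normalised reads in the Piwi-MatKD_2 libraries of 21.6, 8.5 and 73.0 M and at most 0.889 in any library of Piwi-MatKD_1 or GFP-MatKD, while CG9717 on the other side had none in Piwi-MatKD_2 and at most 0.889 elsewhere. Tti1 and Alg12, beside Rpt3R, had 1387 ± 246 and 410.0 ± 80.3 in Piwi-MatKD_2, 1426 ± 164 and 375 ± 26.8 in Piwi-MatKD_1, and 1502 ± 89.4 and 422 ± 64.8 in GFP-MatKD. Strand of the counting is not given, so overlap of reads between neighbours was not tested.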
